A study of Mus musculus with 61 samples.

Results

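H3K27ac was set side by side in whole microglia and in nuclei sorted for PU.1, both from wild-type brain. The members were chosen by library and not by signal: the WT microglia cells (2 ChIP-seq libraries, labelled as CD45+ CD11b+ CX3CR1+ whole cells) and the WT PU1+ nuclei (2 ChIP-seq libraries) are 4 of the 61 samples of the series. All 4 came from C57/Bl6 mouse brain of wild-type genotype, with an antibody against H3K27ac. The cells were measured as tags in 133129 windows of 1000 bp centred on open chromatin. The nuclei were measured as lists of called regions, 11149 regions in library 1 and 36057 in library 2. The question was which windows high in cells had no region called in nuclei, and which nuclei regions lay off every window.

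The remaining samples of the series include microglia that lack an enhancer of Sall1, nuclei of other brain cell types sorted for NeuN or Olig2, and ChIP-seq for transcription factors. Their regions are used here only as overlaps. The cells were dissociated mechanically, stained while alive and then fixed and sorted, whereas the tissue for nuclei was homogenised in fixative and the nuclei were stained for PU.1 afterwards. Cells and nuclei therefore differed in preparation as well as in sort, and these cannot be told apart. The mark was read on chromatin in both. Both sorts take in more than microglia in principle: CD11b, CD45 and CX3CR1 also mark other myeloid cells, and PU.1 is made by myeloid and some lymphoid cells. The published description of the material is not uniform, since H3K27ac is assigned in one passage to nuclei sorted for PU.1 and in another to fixed, sorted cells. The libraries are called cells here because their labels say so, and every comparison of cells with nuclei rests on those labels. The labels name no animals, so the spread between the libraries of a group may be technical.

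H3K27ac is acetylation of lysine 27 of histone H3, a mark laid down by p300 and CBP on nucleosomes beside active promoters and enhancers. Microglia are the resident macrophages of the brain. PU.1, the product of Spi1, is the factor that opens most macrophage enhancers, and SALL1 is a zinc-finger factor that holds the microglial programme in place. Genes of microglial identity, such as P2ry12, Cx3cr1 and Tmem119, lie within long acetylated stretches, whereas immediate-early genes such as Fos and Egr1 are switched on within minutes by stress or growth factors.

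Throughout, the level in cells is the mean of the WT libraries in normalized tags per window, with each library scaled to 10000000 tags. A window was called active above 16 and high above 64. It was promoter-side when its centre lay within 3000 bp of an annotated start site and distal otherwise. A nuclei call meant that a region of either list shared at least 1 bp with the window. The level in nuclei is given per kb of the called region, on the same scale of 10000000 tags. It is an average over a region of any length, whereas the window sits on an open site.

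Most windows that were high in cells and had no nuclei region were CpG-rich promoters, so the first set shows the 200 bases before the RefSeq start of 5 such genes, with CpG dinucleotides in capitals (mm10, GRCm38.p6). Tra2a, Inpp5a and Dnaja2 were the highest in cells among those whose 200 bases lay within such a window and clear of annotated UTRs. Hspa1a and Nr4a2 are the members of the immediate-early and stress list that met the same terms. They held 20, 12, 28, 13 and 37 CpG in that order.
Tra2a (promoter, chr6:49264053-49264252, minus strand): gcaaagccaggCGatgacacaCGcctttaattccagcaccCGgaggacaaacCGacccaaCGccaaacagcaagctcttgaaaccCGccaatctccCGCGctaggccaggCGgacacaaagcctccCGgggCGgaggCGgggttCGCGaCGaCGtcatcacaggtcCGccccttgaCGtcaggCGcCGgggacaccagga
Inpp5a (promoter, chr7:139388909-139389108, plus strand): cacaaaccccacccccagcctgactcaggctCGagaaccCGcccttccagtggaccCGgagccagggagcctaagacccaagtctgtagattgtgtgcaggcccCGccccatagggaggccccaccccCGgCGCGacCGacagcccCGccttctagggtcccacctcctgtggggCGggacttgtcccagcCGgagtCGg
Dnaja2 (promoter, chr8:85555362-85555561, minus strand): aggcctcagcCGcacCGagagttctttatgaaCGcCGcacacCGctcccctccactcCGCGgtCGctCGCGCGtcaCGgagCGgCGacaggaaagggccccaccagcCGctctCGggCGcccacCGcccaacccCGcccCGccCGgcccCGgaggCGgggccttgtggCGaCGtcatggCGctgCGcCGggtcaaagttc
Hspa1a (promoter, chr17:34972157-34972356, minus strand): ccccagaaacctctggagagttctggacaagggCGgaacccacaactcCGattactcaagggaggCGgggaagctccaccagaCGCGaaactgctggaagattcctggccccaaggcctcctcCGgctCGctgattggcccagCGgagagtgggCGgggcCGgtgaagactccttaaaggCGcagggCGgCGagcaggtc
Nr4a2 (promoter, chr2:57124004-57124203, minus strand): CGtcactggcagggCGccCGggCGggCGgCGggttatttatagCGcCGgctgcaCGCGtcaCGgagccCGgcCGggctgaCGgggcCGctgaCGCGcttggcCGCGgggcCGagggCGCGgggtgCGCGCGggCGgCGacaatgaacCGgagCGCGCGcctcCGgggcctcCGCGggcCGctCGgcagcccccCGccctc

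The second set shows promoters called in both nuclei lists, again with CpG in capitals. Ranbp2 had 1009 and 679 tags in cells, and regions of 27.5 and 78.5 tags per kb in nuclei, among the highest levels in cells relative to nuclei. Trem2, a lipid receptor, and Ctss, a lysosomal protease, are microglia identity genes with low levels in cells relative to nuclei, taken from those that met the same terms for display. Other promoters of that list, such as those of Aif1 and Csf1r, lay lower than Ctss. Ranbp2 held 24 CpG, against 4 in Trem2 and 2 in Ctss.
Ranbp2 (promoter, chr10:58446652-58446851, plus strand): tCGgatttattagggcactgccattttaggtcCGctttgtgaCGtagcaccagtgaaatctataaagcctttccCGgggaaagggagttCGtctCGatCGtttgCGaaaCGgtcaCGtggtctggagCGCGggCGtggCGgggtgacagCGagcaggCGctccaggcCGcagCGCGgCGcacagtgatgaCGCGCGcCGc
Trem2 (promoter, chr17:48346201-48346400, plus strand): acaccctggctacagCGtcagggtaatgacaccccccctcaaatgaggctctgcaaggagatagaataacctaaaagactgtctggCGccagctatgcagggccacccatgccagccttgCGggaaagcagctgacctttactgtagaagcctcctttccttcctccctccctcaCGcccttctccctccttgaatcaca
Ctss (promoter, chr3:95526586-95526785, plus strand): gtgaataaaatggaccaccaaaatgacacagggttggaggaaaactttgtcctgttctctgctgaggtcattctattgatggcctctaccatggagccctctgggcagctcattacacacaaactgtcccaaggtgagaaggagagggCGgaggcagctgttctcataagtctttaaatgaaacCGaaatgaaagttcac

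The third set shows the central 200 bases of the distal windows of microglia identity genes that were high in cells, called in both nuclei lists and held the PU.1 core GAGGAAGT, with the core on either strand in capitals. The window near Mef2c had 447 and 232 tags in cells and regions of 47.8 and 105 tags per kb in nuclei. The window nearest to Tyrobp had 408 and 203 tags in cells and 55.3 and 190 tags per kb in nuclei, and the window of Runx1 had 170 and 138 tags in cells and 36.6 and 122 tags per kb in nuclei.
Mef2c distal (centre of the window, chr13:83609255-83609454, plus strand): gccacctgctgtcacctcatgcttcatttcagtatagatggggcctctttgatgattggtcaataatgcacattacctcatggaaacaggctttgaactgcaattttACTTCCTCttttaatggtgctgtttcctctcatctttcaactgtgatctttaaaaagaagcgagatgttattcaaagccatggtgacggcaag
Tyrobp distal (centre of the window, chr7:30394516-30394715, plus strand): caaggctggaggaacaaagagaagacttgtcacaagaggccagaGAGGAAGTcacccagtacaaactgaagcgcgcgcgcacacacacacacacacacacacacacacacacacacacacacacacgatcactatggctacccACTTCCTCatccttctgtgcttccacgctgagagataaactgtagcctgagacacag
Runx1 distal (centre of the window, chr16:93031687-93031886, plus strand): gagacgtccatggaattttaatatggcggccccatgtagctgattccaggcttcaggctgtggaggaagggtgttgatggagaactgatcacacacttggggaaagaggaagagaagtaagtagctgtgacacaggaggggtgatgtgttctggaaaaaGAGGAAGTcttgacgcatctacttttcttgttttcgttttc

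The last sequence is the centre of the densest region that both nuclei lists held and no window touched, within Pecam1, with CpG in capitals.
Pecam1 off-window (centre of the nuclei region, chr11:106679879-106680078, plus strand): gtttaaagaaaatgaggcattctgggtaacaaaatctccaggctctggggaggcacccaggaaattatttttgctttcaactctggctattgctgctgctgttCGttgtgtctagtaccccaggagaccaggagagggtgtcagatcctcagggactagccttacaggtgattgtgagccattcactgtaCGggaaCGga

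The 4 libraries differed in depth and in how much they gave. In cells, 1 tag was worth 0.411 in library 1 and 0.995 in library 2, which corresponds to 24357795 and 10047702 tags. Every cell value came out as a whole number of tags within 0.05 of a tag. Over active windows the medians were 55.8 and 41.8 normalized tags, so cell library 1 was higher by a median of 0.46 on the log2 scale. In nuclei, the steps of the values gave 19667776 and 12000887 tags for lists 1 and 2, of which listed regions held 8.04% and 53.5%. List 1 covered 17.4 Mb and list 2 62.6 Mb (17429048 and 62596064 bp). Of the regions of list 1, 95.1% overlapped a region of list 2, while 24.9% of list 2 overlapped one of list 1. Nuclei library 1 thus stood apart as the shorter list despite its larger number of tags, and results are given for each list. Its densest region, nearest to Gm10800 and 73.0% repeat-masked, alone held 55320 of its 804259 listed normalized tags. The cell libraries differed by more than counting noise, with a chi-square of 3.25 per degree of freedom over the active windows.

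The log2 levels correlated more within a kind of library than between cells and nuclei, where the intervals also differed. Over the 25334 active windows with a region in both lists, the log2 levels correlated at 0.954 between the cell libraries and at 0.758 between the nuclei libraries. The correlation of the cell mean with nuclei was 0.259 for library 1 and 0.226 for library 2. At distal windows it was 0.424 and 0.332, and at promoter-side windows 0.164 and 0.149. Between kinds, single 1000 bp windows were set against averages over regions of any length. The part of these unlike intervals in the lower values was not tested. The points correlated are windows, which share libraries and often the same region, and they are not independent. The smallest p that an exact permutation test of such small groups can reach is 0.33 (n = 2 each), so no test of cells against nuclei was made and the values below are descriptions.

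Most acetylated chromatin of the cells was also called in nuclei. Of the 48557 active windows, 44347 (91.3%) had a region in either nuclei list, 90.9% in list 2 and 52.6% in list 1. Of the 19546 high windows, 96.8% had a region in either list and 14332 (73.3%) had one in both. Of all 133129 windows, 47.5% had a region, and of the 84572 windows that were not active, 18907 (22.4%) had one.

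The share called was larger at higher levels in cells up to 256 tags, and from 16 to 512 tags it was lower at promoter-side than at distal windows in both lists. Below 16 tags, list 2 held slightly more of the promoter-side windows, with 57.9% against 56.1% of distal ones at 8 to 16 tags. At promoter-side windows with 32 to 64 tags in cells, 88.8% had a region of list 2 and 41.1% one of list 1. At distal windows of the same level the shares were 95.1% and 60.5%. Among windows with 256 to 512 tags, list 1 held 83.2% of those at promoters and 97.0% of distal ones. Above 512 tags the order turned, and a region of list 2 was on 97.4% of the 313 promoter-side and 92.3% of the 143 distal windows, and one of list 1 on 92.7% and 92.3%.

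**Figure D1:**
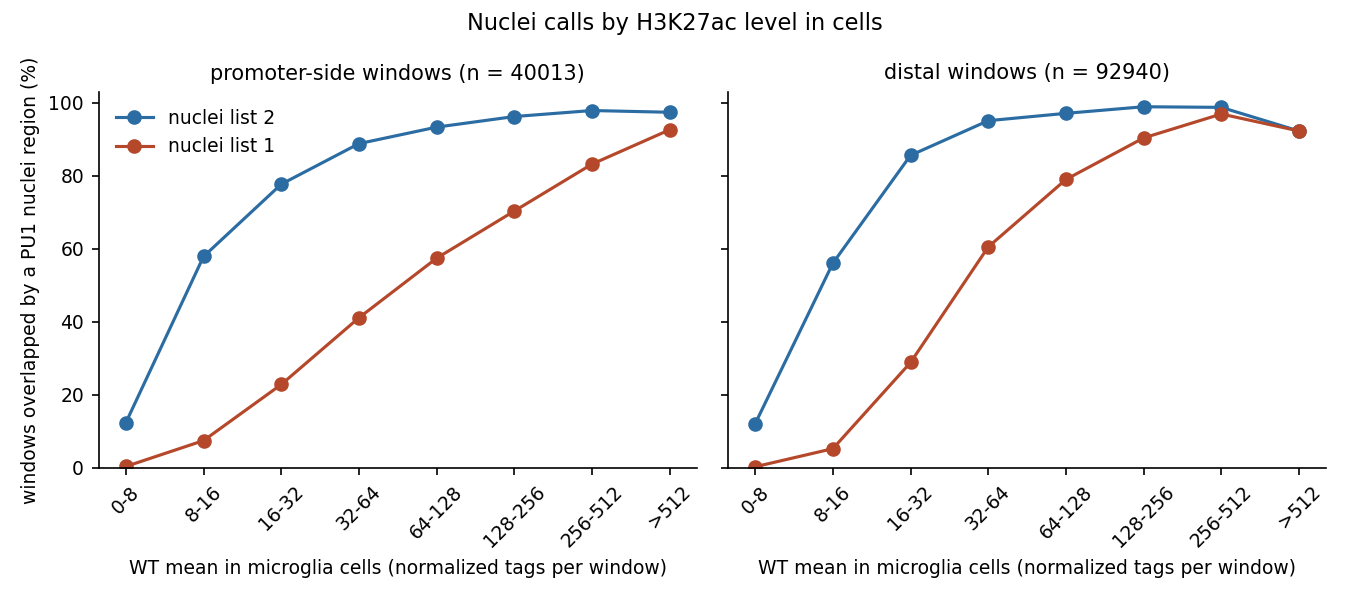
Share of windows overlapped by a PU1 nuclei region (percent, vertical axis) by the WT mean in microglia cells (normalized tags per window, in doubling bins, horizontal axis), for promoter-side windows on the left and distal windows on the right; blue is nuclei list 2 and red is nuclei list 1. List 2 reached 88.8% of promoter-side and 95.1% of distal windows at 32 to 64 tags, where list 1 held 41.1% and 60.5%.

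The high windows without any nuclei region numbered 624, which is 3.19% of all high windows. They lay nearest to 407 genes, of 6861 genes with a high window, and for 278 genes every high window lacked a region. Without PU1 nuclei library 2, the number of high windows with no region was 5094. Of the 624 windows 480 were promoter-side (4.07% of 11808) and 142 were distal (1.84% of 7732). By the authors' annotation 325 lay in promoters, 181 in introns and 72 between genes. Their levels were at the low end of the high range, with medians of 115 and 83.6 tags in cell libraries 1 and 2, against 164 and 108 in the windows with a region of both lists. Around the threshold itself, 60 of 1009 windows with 64 to 68 tags and 62 of 1070 windows with 60 to 64 tags had no region.

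A miss by a short distance was a minority of these. Of the 624 windows, 138 had a region within 2000 bp, 81 of them within 500 bp, while 233 had none within 20000 bp. The median distance to the nearest region was 11236 bp.

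The highest promoters of this set belonged to genes of several kinds. Tra2a, which encodes a splicing regulator, had 681 and 486 tags at chr6:49263236-49264236 in cells and its nearest nuclei region was 26445 bp away. Ltv1, a factor of ribosome assembly, had 558 and 518 tags in cells, with the nearest nuclei region 2004 bp away. Inpp5a, an inositol phosphatase, had 525 and 311 tags in cells and its nearest nuclei region was 91971 bp away.

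Dnaja2, a co-chaperone of HSP70, had 422 and 291 tags in cells at its highest window, and all 4 of its high windows lacked a nuclei region. Tmem57 had 422 and 312 tags in cells, Ift172 had 442 and 283, and D3Ertd751e had 379 and 261. Of these 7 promoters, 6 had a region in the PU1 nuclei of enhancer knockout mice and in NeuN and Olig2 nuclei of wild-type mice, which were on 98.2, 86.7 and 85.4% of all high promoter-side windows. The highest promoter-side window of the set, at Rn45s, was in none of these lists and is described with the repeated sequences. The exception was Ift172, which had a NeuN region alone and the nearest WT PU1 region within 500 bp. Every named window of this set was high in both cell libraries.

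The distal windows of the same kind were a mixed group. Krt8 was the nearest gene to a window at chr15:101995188-101996188 with 772 and 569 tags in cells, 16571 bp from a WT nuclei region and within a region of the knockout PU1 nuclei. A window in an intron of Pias1, a SUMO ligase, had 271 and 184 tags in cells, 629 bp from a nuclei region, and carried a SALL1 peak. The window of highest level, nearest to Lrrc4c but 1195148 bp from its start, had 1040 and 1903 tags in cells and was 63.6% repeat-masked. Cell library 2 was the higher one there, the reverse of its usual place.

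Some of this group lay in repeated or unplaced sequence, where tags cannot be assigned to a single copy. All 10 active windows of Rn45s, the 45S ribosomal RNA precursor, were high in cells (378 to 612 tags) and had no nuclei region. The same held for all 17 windows of Sfi1 (86.4 to 178 tags) and for 24 of the 40 high windows of the pseudogene Pisd-ps3 on an unplaced contig. Ly6c2, Mir101c, Pex2 and Txndc11 were the nearest genes to distal windows with repeat-masked shares of 37.2, 58.2, 48.2 and 36.9%. In each of these 4 windows cell library 2 was above cell library 1, from 311 and 314 tags in libraries 1 and 2 near Ly6c2 to 199 and 219 near Txndc11. Without the windows off the main chromosomes or over 50% repeat-masked, 583 high windows lacked a region, so 41 of the 624 fell under those terms, which the windows of Rn45s and Sfi1 by their median masked shares of 4.6 and 35.7% mostly did not.

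Csf2ra, a receptor subunit for GM-CSF, and Fosb also had 4 high windows without a region each, as did other genes tied at that count, 9 genes in all with at least 4. At the other end, E230029C05Rik had 30 high windows, all with regions of both nuclei lists, and Inpp5d, the phosphatase SHIP1, had 27 of 28. Marcks, a membrane-bound substrate of protein kinase C, had 25 of 25, Ldlrad4 had 28 of 29, and Ski, a repressor of SMAD signalling, had 24 of 31.

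The 8 highest distal windows with a region in both lists lay near genes of different functions. A window 47275 bp from the start of Tnfaip3, an inhibitor of NF-kB signalling, had 1137 and 728 tags in cells, against 79.6 and 237 tags per kb in nuclei. Kdm6b, an H3K27 demethylase, had 1047 and 751 tags in cells and 59.3 and 244 tags per kb in nuclei. Ncf4, a subunit of the phagocyte NADPH oxidase, had 947 and 728 tags in cells and 63.1 and 246 tags per kb in nuclei.

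Rgs2, a regulator of G protein signalling, had 983 and 673 tags in cells and 99.8 and 230 tags per kb in nuclei. The windows of Disc1, Plekho2, Mtch1 and Fhad1os1 had 952 to 1130 tags in cell library 1 and 671 to 760 in cell library 2. Their regions had 45.6 to 87.3 tags per kb in nuclei list 1 and 139 to 178 in list 2. In all 8 windows cell library 1 was above cell library 2, and nuclei list 2 was above nuclei list 1.

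**Figure D2:**
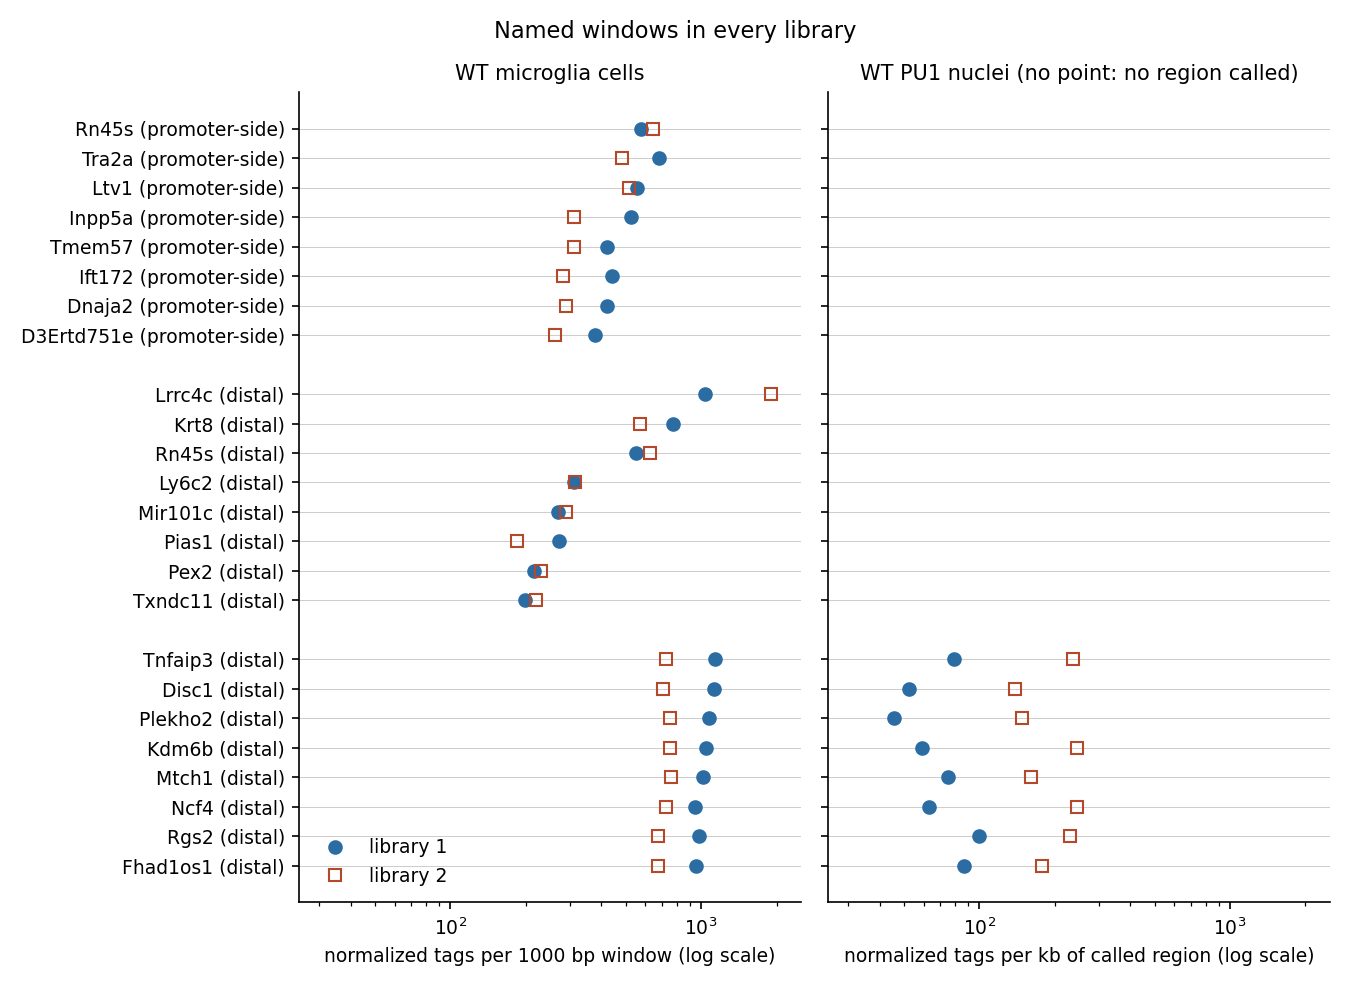
Level of the named windows in each library, with WT microglia cells on the left (normalized tags per 1000 bp window, log scale) and WT PU1 nuclei on the right (normalized tags per kb of called region, log scale); filled circles are library 1 and open squares are library 2. The upper 16 windows have no nuclei point because no region was called, while the 8 lowest have 671 to 1137 tags in cells and 45.6 to 246 tags per kb in nuclei.

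Windows with and without a nuclei call differed in what else lay on them. At promoter-side windows, 79.2% of those without a WT PU1 region had one in the knockout PU1 lists, against 99.8% of those called in both WT lists. NeuN regions covered 90.4% and 83.7% of the same sets, and Olig2 regions 86.5% and 82.2%. Promoter-side windows with a region of list 2 only had still larger shares, 93.0% for NeuN and 92.5% for Olig2. At distal windows without a WT region, 28.2% had a knockout PU1 region, against 98.7% of the windows called in both.

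Binding peaks were sparser where the nuclei call was missing. The SALL1 and SMAD4 libraries are labelled as microglia, but the study describes sorted nuclei for both factors. Their peaks therefore cannot be read as coming from whole cells. SALL1 peaks overlapped 3.75% of promoter-side and 14.8% of distal windows without a region, against 17.8% and 56.8% of those with both. SMAD4 peaks overlapped 2.92% and 2.82%, against 18.5% and 33.8%. For p300, whose libraries were labelled partly as microglia and partly as PU1 nuclei, the shares were 13.5% and 7.04%, against 31.8% and 45.5%. The sets differed in level in cells as well, and the part of level in these shares was not tested.

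Windows without a region were richer in CpG than windows with regions of both lists, in part through their larger share of promoters. The ratio of observed to expected CpG was 0.71 at the median of the 598 windows without a region for which sequence was available, against 0.37 in windows with both lists. Within promoter-side windows the medians were 0.75 and 0.74, and a ratio above 0.6 was found in 79.0% and 67.6%. Within distal windows the medians were 0.28 and 0.23, and a ratio above 0.6 was found in 21.5% and 3.93%. High windows with a region of list 2 only were much like those without a region, with a median of 0.70 over both kinds. A ratio above 0.6 was found in 79.6% of their promoter-side and 11.3% of their distal windows. At promoters the CpG content was therefore not particular to windows without a call. The PU.1 core GAGGAAGT, searched on both strands in the central 200 bp, was in 1.68% of promoter-side and 7.44% of distal windows without a region, against 4.38% and 12.2% with both. It was in 4.93% of all promoter-side and 11.2% of all distal windows. The AP-1 site TGANTCA was in 9.09% of distal windows without a region and 9.84% with both, and in 8.79% of all distal windows. At promoter-side windows it was in 2.10% without a region and 4.13% with both, and in 4.98% of all. The lower promoter-side share was therefore not particular to the PU.1 core. The distal shares without a region rest on 121 windows with sequence.

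**Figure D3:**
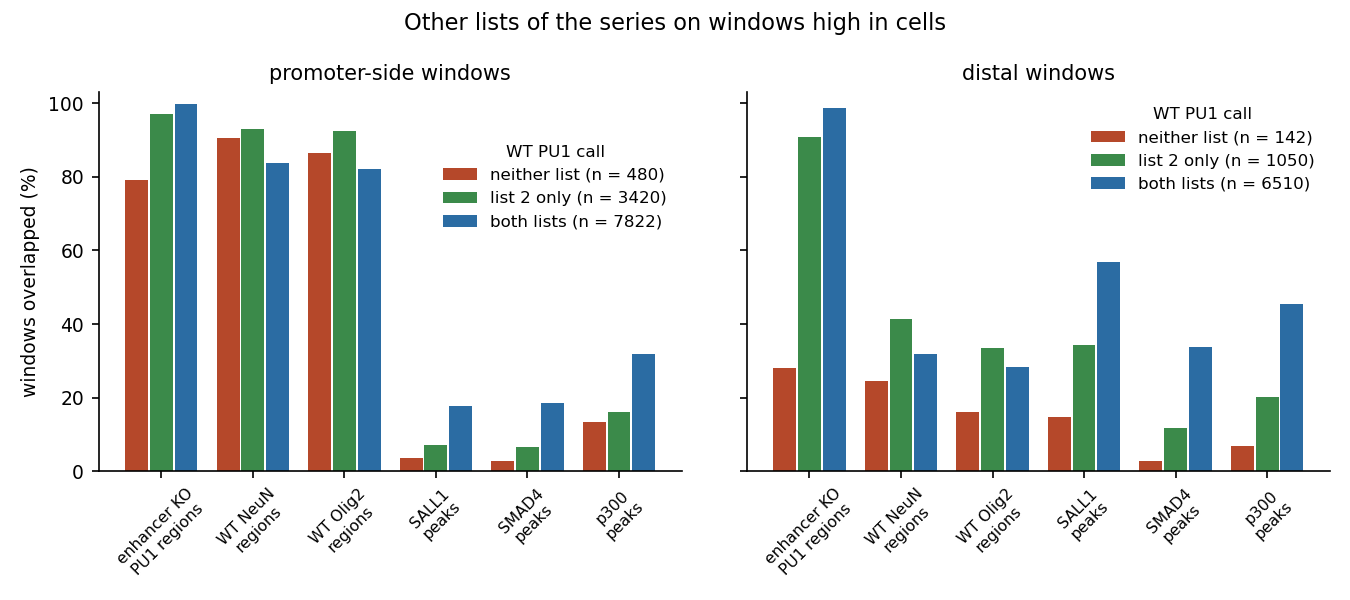
Share of high windows (percent, vertical axis) overlapped by each other list of the series, for promoter-side windows on the left and distal windows on the right; red bars are windows in neither WT PU1 list, green bars those in list 2 only and blue bars those in both. SALL1 peaks lay on 14.8% of distal windows in neither list, against 56.8% of those in both, and knockout PU1 regions on 28.2%, against 98.7%.

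Genes of microglial identity had no high window without a nuclei region. Of their 1023 windows 255 were high, all with a region and 244 with regions of both lists (95.7%, beside 73.3% over all high windows). Over all high windows that share was 84.2% at distal and 66.2% at promoter-side ones. The part of window kind in the list's share was not tested. Disease-associated microglia genes had 95.1%, TGF-beta pathway genes 92.0% and border macrophage genes all 25. The share was lower for cytokine and innate activation (36 of 45), housekeeping (76.3%) and immediate-early and stress genes (75.5%). Of the 600 active windows of identity genes 593 (98.8%) had a region, beside 91.3% over all active windows. The active share was 98.9% for disease-associated microglia and 91.8% for immediate-early and stress genes. Even where cells were not active, 239 of 423 windows of identity genes (56.5%) had a region, beside 22.4% over all windows that were not active. The identity genes include the marker receptors P2ry12, P2ry13, Cx3cr1 and Gpr34, complement genes C1qa, C1qb and C1qc, and the regulators Sall1, Spi1, Mef2a, Irf8 and Runx1.

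Immediate-early and stress genes had about the background share of high windows without a region. Of their 212 high windows 7 lacked one, beside 3.19% over all high windows, and 160 had regions of both lists (75.5%, beside 73.3%). Fosb, an AP-1 subunit, had 318 and 168 tags in cells at its start and 230 and 126 at a window 10021 bp away, with no region on any of its 4 high windows. At Hspa1a, an inducible HSP70 gene, cells had 235 and 190 tags, with the nearest nuclei region 8992 bp away. Nr4a2, a nuclear receptor, had 98.9 and 70.7 tags in cells and its nearest nuclei region was 57483 bp away. Hspa1a has a near-identical neighbour in Hspa1b, so its tags are uncertain.

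The list of monocyte and neutrophil genes had 3 further high windows without a region, all near Ly6c2 in the repeat-rich stretch above. No other list had any. As a check of the labelled cell type, high windows made up 255 of 1023 for microglia identity genes, beside 19546 of 133129 over all windows. That share was not particular to the list. High windows were 38 of 140 for housekeeping, 113 of 419 for TGF-beta pathway and 212 of 944 for immediate-early and stress genes. They were fewer, 45 of 229, for cytokine and innate activation genes, 41 of 210 for disease-associated microglia genes and 12 of 79 for interferon response genes. For neuron genes they were 0 of 87 and for ependymal genes 0 of 12. Endothelial and mural genes had 6 of 117 and astrocyte genes 7 of 92, all 7 nearest to Slc1a3. For the oligodendrocyte lineage they were 14 of 118, of which 9 were nearest to Mbp. Border macrophage genes had 25 high windows, all with regions of both nuclei lists, but 20 were nearest to Ccr1 and 5 to Stab1, and Mrc1, Pf4, Lyve1 and Cd163 had none. Lymphocyte genes had 7 of 56, 6 of them nearest to Klrb1c, and 1 had both lists. The part of such cells in the results was not tested.

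The levels were then compared as a quotient, the log2 of the level in cells over the density of the nuclei region on the same window. The quotient was chosen after the data had been seen and compares unlike intervals, so only its order between windows is read. Over the 44125 active windows with a region of list 2 its median was -0.45, and over the 25556 with a region of list 1 it was 1.04. At promoter-side windows the median was 0.03 for list 2 and 1.63 for list 1, and at distal windows -0.77 and 0.67. The quotient was higher at promoters than at distal sites for both lists.

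CpG-rich windows, and promoters also acetylated in other brain nuclei, had higher quotients than the rest. Windows with an observed to expected CpG ratio above 0.6 had a median of 0.45 for list 2 and 2.17 for list 1, against -0.76 and 0.70 at or below 0.6. Promoter-side windows with both a NeuN and an Olig2 region, active in other brain nuclei too, had medians of 0.31 and 1.99. Those with neither had -0.83 and 0.67. Distal windows differed less, with -0.53 and 0.97 where both other nuclei had a region, against -0.83 and 0.59 where neither had.

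At the start of Napa, a vesicle fusion factor, cells had 626 and 484 tags, against 20.2 and 38.5 tags per kb in nuclei. Ptp4a1, a phosphatase, had 953 and 750 tags in cells and 24.6 and 77.5 tags per kb in nuclei. Rabgef1, a guanine nucleotide exchange factor for RAB5, had 709 and 580 tags in cells and 21.7 and 51.8 tags per kb in nuclei. Rlim, Vps37a, Ranbp2, Crem, Dnajb6, Itm2c, Mapre1, Ythdc1 and Wdr45b completed the highest 12 high windows by gene. All 12 were promoter-side, had both NeuN and Olig2 regions and had no SALL1 peak, beside 86.7, 85.4 and 14.0% of all high promoter-side windows with a NeuN region, an Olig2 region and a SALL1 peak.

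The lowest 12 high windows by gene were distal in 11 cases, the exception being a window of Pisd-ps3 on the unplaced contig. They included 4 members of the microglia identity list. A window 9042 bp from Spi1 had 75.5 and 53.7 tags in cells, against 101 and 306 tags per kb in nuclei. A window of Cx3cr1, the fractalkine receptor, had 92.0 and 36.8 tags in cells and lay in a nuclei region of 46977 bp with 383 tags per kb in list 2 and 73.7 in list 1. Windows of Tgfbr1 and Sall1 had 89.5 and 41.8, and 94.8 and 59.7 tags in cells, against 102 and 262, and 96.6 and 329 tags per kb in nuclei.

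By list, microglia identity had the lowest median quotient among those with at least 50 such windows. It was -1.44 over 593 windows for list 2 and 0.31 over 492 windows for list 1, beside -0.45 and 1.04 over all windows. Of the 34 genes, 33 had a median below that of all windows for list 2 and 27 for list 1. The exception for list 2 was Tyrobp, a signalling adaptor, at 0.30. The lowest genes for list 2 were Cx3cr1 at -3.66, C1qa at -3.64, Tmem119 at -3.17, Cst3 at -2.64 and Slc2a5 at -2.48.

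Many windows of these genes lie in long nuclei regions, and the quotient moved with region length. Over windows in list 2 regions of more than 3000 bp the median was -0.86, against -0.04 in regions of up to 1000 bp. Among regions of up to 2000 bp alone, microglia identity windows had a median of -0.997 for list 2 (27 windows), beside -0.07 over all 17435 such windows. For list 1 the corresponding medians were 0.30 (93 windows) and 1.21. The part of region length in the list's value was not tested.

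The start sites of 3 identity genes differed widely in cells. Tmem119 had 13.6 and 13.9 tags in cells at the window on its start, within a nuclei region of 279 tags per kb in list 2 and 57.8 in list 1. P2ry12, a purinergic receptor, had 416 and 294 tags in cells at its start, against 83.0 and 317 tags per kb in nuclei. Cx3cr1 had 339 and 235 tags in cells there, against 76.9 and 383 tags per kb in nuclei. The level in cells differed more between these 3 starts than the density of their nuclei regions did in either list. The cell values are for single windows, whereas the list 2 densities are averages over 31244, 10820 and 46977 bp in the same order. The part of this averaging was not tested.

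Immediate-early and stress genes had the highest median among lists with at least 50 such windows, over regions of all lengths. It was 0.20 over 333 windows for list 2 and 1.92 over 223 windows for list 1. Of the 32 genes with a value for list 2, 26 were above the median of all windows, as were 24 of 28 for list 1. At promoter-side windows the list's median was 0.65 for list 2, beside 0.03 over all such windows, and at distal windows -0.44, beside -0.77. With cell library 2 alone the list's median for list 2 was -0.17, beside -0.68 over all windows.

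By gene, the highest medians for list 2 were those of Hsp90aa1 at 2.61, Hspa1b at 2.06, Fos at 1.82 and Egr1 at 1.77. Fosb was at 0.40. Hsp90aa1 and Hspa1b had 3 such windows each and no value for list 1. The tags of Hspa1b are uncertain, as are those of its near-identical neighbour Hspa1a. Hsp90aa1, an inducible HSP90, had 481 and 377 tags in cells at its start, against 68.1 tags per kb in nuclei list 2 and no region in list 1. Dnajb1, an HSP40, had 399 and 295 tags in cells at its start, against 22.4 and 54.9 tags per kb in nuclei. Dusp1, a phosphatase of MAP kinases, had 830 and 504 tags in cells, against 32.3 and 139 tags per kb in nuclei.

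Fos had 91.6 and 57.7 tags in cells at its start, against 21.2 tags per kb in nuclei list 2 and no region in list 1. Jun had 577 and 438 tags in cells, against 46.0 and 176 tags per kb in nuclei, although the median of its 28 active windows was -1.46 for list 2. The 6 genes below the median of all windows for list 2 included Jun, Ier3 at -1.83, Rhob at -0.97 and Socs3 at -0.56. Junb had 378 and 273 tags in cells at its start, against 75.6 and 308 tags per kb in nuclei, the densest nuclei region of list 2 among these 6 starts.

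The 4 other lists with at least 50 such windows for list 2 lay between these for list 2. Cytokine and innate activation genes had medians of -0.22 and 1.42 for lists 2 and 1, with 13 of 17 genes above the median of all windows for list 2. Ccl3, a chemokine, had 175 and 110 tags in cells at its start, against 36.5 and 82.8 tags per kb in nuclei, while Il1b had 16.01 and 15.92 tags in cells at its start and a list 2 region of 54.2 tags per kb. Housekeeping genes had medians of -0.15 and 1.34. Actb had 363 and 207 tags in cells at its start and 101 and 321 tags per kb in nuclei, whereas B2m had 599 and 471 tags in cells and 51.3 and 130 tags per kb in nuclei.

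TGF-beta pathway genes had medians of -0.67 and 0.90 and split evenly, with 7 of 13 genes above the median of all windows and 6 below, in both lists. Smad2, a receptor-activated SMAD, had 394 and 270 tags in cells at its start, against 32.7 and 64.5 tags per kb in nuclei. Its quotients were 3.34 and 2.36. Disease-associated microglia genes had medians of -0.86 and 0.88, with the lowest value for list 2 at Ctsd, a lysosomal protease, at -2.09. Apoe had 1.23 and 4.98 tags in cells at its start and a list 2 region of 31.8 tags per kb in nuclei.

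**Figure D4:**
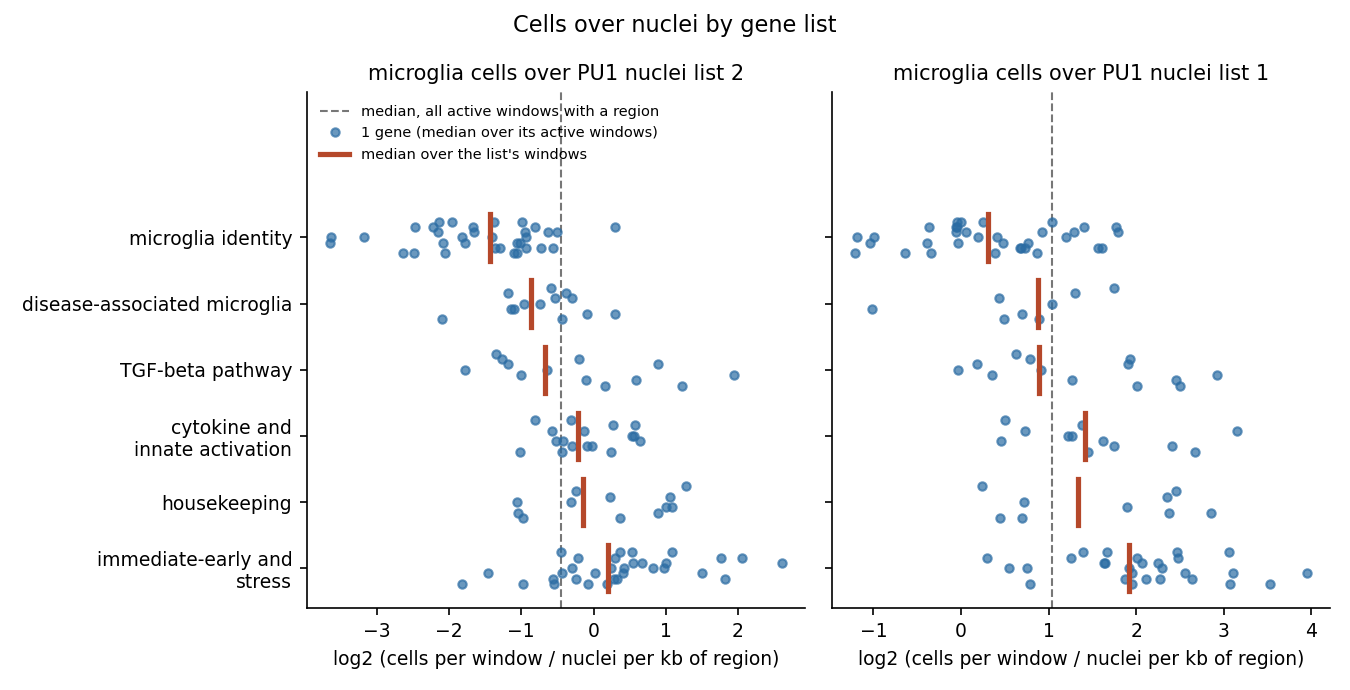
Log2 quotient of the level in microglia cells over the density of the PU1 nuclei region (horizontal axis) for list 2 on the left and list 1 on the right; each circle is 1 gene (median over its active windows), the red bar is the median over the windows of a list and the dashed line is the median over all active windows with a region. The median of microglia identity is -1.44 and 0.31, left of the dashed lines at -0.45 and 1.04, and that of immediate-early and stress genes is 0.20 and 1.92, right of them.

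Nuclei regions off every window were mostly short and sparse. They numbered 607 of the 11149 regions of list 1 (5.44%) and 8792 of the 36057 of list 2 (24.4%), but held 1.04% and 2.70% of the listed tags. Regions of 500 bp, the shortest size listed, made up 76.4% of them in both lists. By construction short regions are favoured here, since 1 shared bp was enough to put a region on a window. Their median densities were 21.4 and 25.0 tags per kb, against 31.5 and 60.1 in regions on an active window, while their median fold over input was 12.6 and 25.4, against 10.3 and 23.8.

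A further 363 regions of list 1 and 9374 of list 2 lay only on windows that were not active in cells. On an active window lay 10179 regions of list 1 (91.3%) and 17891 of list 2 (49.6%), with 98.2% and 91.7% of the listed tags. The share of regions off active chromatin was therefore large in list 2 and their share of tags was small.

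Few of the off-window regions recurred. Of the 8792 of list 2, 53 overlapped a region of list 1 (0.60%), beside 48.6% of those on an active window. Of the 607 of list 1, 193 (31.8%) overlapped a region of list 2, which is longer. Knockout PU1 regions covered 14.0% of the off-window regions of list 2 and 26.7% of those of list 1, beside 60.03% and 92.5% of all regions of these lists. No other H3K27ac list examined here overlapped 68.8% and 64.6% of them, beside 28.6% and 3.89% of all regions. SALL1 peaks lay on 1.55% of them in list 2 and 3.95% in list 1, beside 38.1% and 45.2% of the regions on an active window. By definition the off-window regions lie outside the open sites of the windows. Their median length was 500 bp in both lists, against 1749 bp in list 2 and 1160 bp in list 1 on an active window. The part of this selection and of length in the overlaps was not tested.

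Distance to the open chromatin set was short in list 2 and longer in list 1. A window lay within 1000 bp of 2320 of the 8792 regions of list 2 and within 5000 bp of 6170, with a median distance of 2234 bp. For list 1 the median was 17207 bp, and 296 of 607 had no window within 20000 bp. Sequence over 50% repeat-masked made up 14.9% of the off-window regions of list 1 and 14.3% of list 2, against 1.92% and 1.48% of those on an active window.

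**Figure D5:**
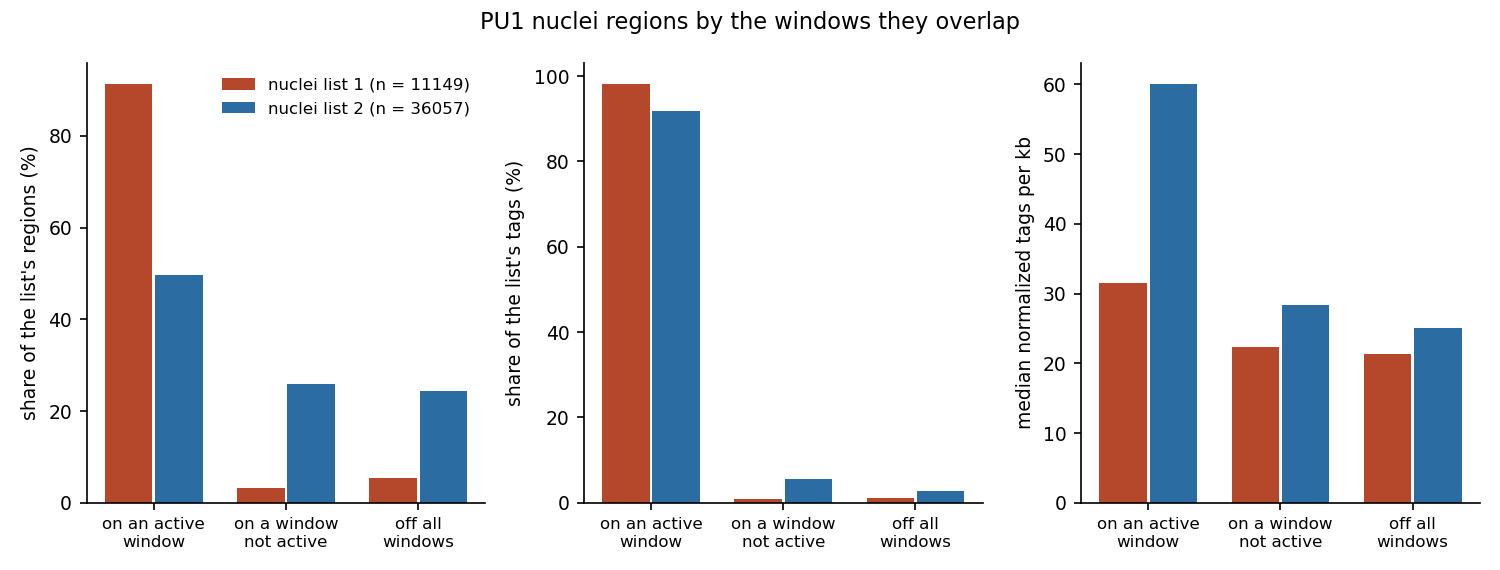
PU1 nuclei regions by the windows they overlap: share of the list's regions (percent), share of the list's tags (percent) and median density (normalized tags per kb), for list 1 in red and list 2 in blue. Off-window regions made up 5.44% and 24.4% of the regions but 1.04% and 2.70% of the tags.

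The densest off-window regions found in both lists lay in or near genes of several kinds. A region within Pecam1, at chr11:106678707-106681250, had 32.7 tags per kb in list 1 and 115 in list 2, lay 2760 bp from a window and was also called in knockout PU1 and NeuN nuclei. One within Ly86, which encodes MD-1, a partner of RP105 on myeloid cells, had 30.7 and 99.7 tags per kb and lay 157 bp from a window. One within Arel1 had 25.4 and 87.6 tags per kb, and one within Ksr1, a scaffold of MAP kinase signalling, had 29.2 and 78.8. The 4 others were nearest to Tmem68, Gm5458, Nudt16 and Gm8362, with 15.2 to 35.2 tags per kb in list 1 and 86.3 to 115 in list 2. Of these, the regions near Gm5458 and Gm8362 were 79.2 and 75.8% repeat-masked. All 8 had a region in the knockout PU1 nuclei, none had a SALL1 peak and 1, within Arel1, had a p300 peak.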

How the data were processed

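H3K27ac ChIP-seq of 2 WT microglia cell libraries and 2 WT PU1 nuclei libraries was used. Reads were aligned by the authors to mm10 with Bowtie2 and processed with HOMER. The study's methods give versions of these tools for other steps and data types, and for ChIP-seq mapping and region calling they are not given in the sources used here. The deposited cell table holds signal, as tags per 1000 bp window scaled to 10000000 tags per library, over merged reproducible ATAC-seq peaks. The 2 other value columns of that table were not used. The deposited nuclei lists hold signal as scaled tags per called region, and the authors' fold (a ratio) of each region over input. The deposited peak lists of SALL1, SMAD4 and p300 hold a score and were used only for overlap. All regions were called per library.

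A window counted as active above 16 and high above 64 tags, and as promoter-side up to 3000 bp from a start site. Nuclei values were divided by region length. Although cell and nuclei values share a scale of tags, windows and regions are different intervals, and the planned view that they share no unit was kept by making no test. The cell over nuclei quotient was added after the data had been seen. Depth was recovered from the steps of the values, whole within 0.05 tags in cells and 0.15 in nuclei. These tags are not independent molecules. Overlaps were computed with Python 3.11.15, pandas 2.3.3 and numpy 2.4.6 and tested on simulated data. Sequences, CpG and repeat masking came from GRCm38.p6 with pysam 0.24.0, promoter sequences from RefSeq and UTRs from GENCODE M21, while distances to start sites were those of the deposited annotation. For 250 windows there was no sequence.

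Named windows were the 8 highest distal and 8 highest promoter-side windows without a nuclei region, the 8 highest distal windows with regions of both lists, 1 per gene, the 8 densest off-window regions found in both lists, and the 5 genes with most windows of each kind. Genes of the 15 fixed lists were named by level or by lack of a region. The members and lists were chosen with earlier results of these data known. Alternatives covered thresholds, overlap, fold, merging and widening of windows, and leaving out each library.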

Additional observations from a re-analysis of the deposited data

How the results depend on the processing

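Of 49 alternative values for the main counts and shares, 25 stayed close to those reported and 24 moved. The 624 high windows without a nuclei region became 1575 with high set above 32 tags, 185 with that threshold raised by a factor of 2 instead, 1575 with an overlap of at least 500 bp, 5214 when both nuclei lists had to hold a region, 1531 with a fold over input of at least 8, and 340 with overlapping windows merged. The share of high windows with a region, 96.8%, was 95.2% above 32 tags, 98.1% with the raised threshold, 91.9% with the 500 bp overlap, 73.3% with both lists and 92.2% with the fold of 8. The share of active windows, 91.3%, was 82.9% with the 500 bp overlap, 52.2% with both lists, 84.4% with the fold of 8 and 89.9% with merged windows. The 607 and 8792 off-window regions of lists 1 and 2 became 375 and 2622 with windows widened by 5000 bp, and 970 and 18166 when only active windows counted. Leaving out 1 library gave 490 to 5094 high windows without a region, 73.9 to 97.0% of high windows and 52.6 to 91.6% of active windows, with the extreme of 5094 reached without PU1 nuclei library 2. By construction, stricter calls and fewer lists leave more windows without a region. Other causes were not tested. Leaving out windows off the main chromosomes or over 50% repeat-masked, chosen after seeing the data, gave 583, 97.0% and 91.6%. The quotients were also chosen after seeing the data. List 1 in place of list 2 gave 1.04 over all windows and 0.31 for microglia identity. It gave 1.92 for immediate-early and stress genes and 1.34 for housekeeping genes. In list 2 regions of up to 2000 bp, housekeeping genes were at 0.83 and immediate-early and stress genes at 0.50. No paired analysis was possible because cells and nuclei with the same replicate number come from different preparations and no test between them was made. In cell libraries 1 and 2, 1 tag was 0.411 and 0.995, far below the threshold of 16. The part of depth and enrichment of the nuclei libraries in the calls was not tested.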
